A study of Mus musculus with 8 samples.

Results

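Meg3, Rian, Mirg, Snhg11, Miat, Cdr1os, Malat1, Neat1 and Rmst are genes of long noncoding RNAs that are known from cell nuclei and neurons, and their levels were examined in mouse retinas. The 9 genes were chosen by name, and the rows carrying these symbols were found for 9 of 9 among the 55213 genes counted. The retinas came from germ-free (GF) adult male C57B1/6 mice, which carry no gut microbes, and 1 eye of each mouse gave 1 library. Mice 9, 10, 11 and 12 were fed a normal diet and form the GF-ND group (n = 4). Mice 13, 15, 16 and 19 were fed a high-fat diet with 23% saturated fat and form the GF-HFD group (n = 4). Both groups received their diet for 8 weeks, from 7 weeks of age until they were killed at 15 weeks. No mice with a gut flora were analysed here, so all 8 retinas share the germ-free state. The question was how the level of each RNA varied between mice and between the 2 diets.

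Long noncoding RNAs are transcribed, and often spliced and polyadenylated, like messenger RNAs but do not act through a protein product. Malat1 gathers in nuclear speckles, the stores of splicing factors, while Neat1 is the scaffold around which paraspeckle proteins assemble. Meg3, Rian and Mirg lie next to each other in the imprinted Dlk1-Dio3 domain, are expressed from the maternally inherited chromosome and host microRNAs and small nucleolar RNAs (snoRNAs). Miat, also called Gomafu, is a nuclear RNA of neurons that was described in the developing retina as Rncr2, Rmst is an RNA of neural progenitors, Snhg11 is a snoRNA host gene of neurons, and Cdr1os is the transcript from which a circular RNA antisense to Cdr1 is made in the brain.

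All 9 genes passed the minimum of 10 counts over the 8 libraries, as did 26900 of the 55213 genes. The libraries held 39258006 to 44357518 counts each, and the members held 1290 (Rmst) to 497983 (Malat1) counts over all 8 libraries. The unit of level is CPM, a count divided by its library total after a TMM correction (which equalises the bulk of genes between libraries), and, where genes are compared with each other, as RPKM, which also divides by the exon length in kilobases. The names "abundant" and "nuclear" hold only in part for these data. By mean CPM, Malat1 ranked 41, Meg3 133 and Snhg11 197 of the genes tested, but Mirg ranked 12313 and Rmst 12518. RNA of the whole tissue was measured, so where in the cell these RNAs were was not measured.

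Positions below come from the GENCODE vM21 annotation of GRCm38, the build that the authors used. Meg3 (ENSMUSG00000021268.17, chr12:109541001-109571726, plus strand), Rian (chr12:109603940-109661716, plus strand) and Mirg (chr12:109729764-109749460, plus strand) follow each other on 1 chromosome. Malat1 (chr19:5795690-5802672, minus strand) and Neat1 (chr19:5824708-5845478, minus strand) are neighbours that each have 1 exon block. Snhg11 lies on chr2:158375638-158386145 (plus strand) and is typed there as protein-coding, Miat on chr5:112213228-112229395 (minus strand), Rmst on chr10:92071037-92165170 (minus strand), and Cdr1os, under the older symbol C230004F18Rik, on chrX:61116378-61292484 (plus strand).

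Promoter windows of 300 bases around the RefSeq start (GRCm38.p6) were found for 7 of the 9 genes, which leaves out Neat1 and Rmst. The 4 windows below belong to the RNAs whose levels lay furthest apart between the diets, and capitals mark the motifs found.
Meg3 (chr12:109540746-109541045, plus strand): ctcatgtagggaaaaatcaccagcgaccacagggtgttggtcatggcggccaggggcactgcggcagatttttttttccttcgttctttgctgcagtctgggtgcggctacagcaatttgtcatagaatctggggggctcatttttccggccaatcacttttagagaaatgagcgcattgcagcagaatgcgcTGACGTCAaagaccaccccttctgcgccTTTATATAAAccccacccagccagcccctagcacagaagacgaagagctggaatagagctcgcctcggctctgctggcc
Snhg11 (chr2:158375463-158375762, plus strand): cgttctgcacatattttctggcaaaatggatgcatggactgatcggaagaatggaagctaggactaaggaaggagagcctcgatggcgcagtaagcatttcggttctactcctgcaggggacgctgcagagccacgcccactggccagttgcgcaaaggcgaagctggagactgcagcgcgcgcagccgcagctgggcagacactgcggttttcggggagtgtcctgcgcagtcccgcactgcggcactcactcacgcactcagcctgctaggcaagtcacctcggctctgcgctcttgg
Miat (chr5:112228899-112229198, minus strand): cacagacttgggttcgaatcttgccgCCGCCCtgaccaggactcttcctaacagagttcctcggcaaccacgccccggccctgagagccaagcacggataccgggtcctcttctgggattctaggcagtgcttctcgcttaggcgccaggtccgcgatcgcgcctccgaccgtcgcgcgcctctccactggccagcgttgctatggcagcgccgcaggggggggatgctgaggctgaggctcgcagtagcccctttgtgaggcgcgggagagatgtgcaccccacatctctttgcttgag
Cdr1os (chrX:61116128-61116427, plus strand): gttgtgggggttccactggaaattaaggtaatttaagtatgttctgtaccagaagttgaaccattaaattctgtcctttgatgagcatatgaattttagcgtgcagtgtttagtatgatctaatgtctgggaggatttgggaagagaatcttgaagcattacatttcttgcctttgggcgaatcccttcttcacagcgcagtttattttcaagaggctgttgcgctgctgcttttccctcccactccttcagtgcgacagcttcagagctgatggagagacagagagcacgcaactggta
The motifs searched on both strands were TATAAA (the TATA box), TGACGTCA (the cAMP response element) and GGGCGG (the GC box). Of all 27025 RefSeq promoter windows of this length, 14.2% hold the first, 1.88% the second and 35.9% the third. Among the 7 windows, the Meg3 window alone holds TATAAA, once on each strand at positions -25 and -29 from the start and overlapping, and alone holds TGACGTCA, at position -57. The Miat window alone holds GGGCGG, read on the other strand at position -224. These matches are a description of the letters and not of a bound factor.

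The 3 imprinted RNAs and Rmst also host microRNAs, short RNAs that pair with target messages through their seed (bases 2 to 8, in capitals below). RefSeq places 39 mature microRNAs from 21 microRNA genes within the spans of these RNAs, 3 in Meg3, 6 in Rian, 26 in Mirg and 4 in Rmst. Those shown are the 4 arms of the Rian microRNA genes with the most counts and the only pair that shares a seed.
miR-341-5p (Rian, chr12:109611521-109611541): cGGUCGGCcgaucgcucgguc
miR-341-3p (Rian, chr12:109611556-109611576): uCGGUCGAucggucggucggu
miR-1188-5p (Rian, chr12:109611841-109611861): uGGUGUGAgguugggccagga
miR-1188-3p (Rian, chr12:109611877-109611901): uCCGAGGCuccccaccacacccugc
miR-453 (Mirg, chr12:109735669-109735692): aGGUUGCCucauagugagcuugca
miR-496a-5p (Mirg, chr12:109739132-109739152): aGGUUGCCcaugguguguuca
Among the 39 there are 38 different seeds, and the shared one, GGUUGCC, belongs to miR-453 and miR-496a-5p of Mirg. The libraries count fragments over the hairpin genes and not the mature microRNAs.

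Lens RNA was high in 2 of the 8 libraries. The 15 lens markers, all of them detected in every library, summed to 67260 CPM in GF-ND mouse 11 and to 11950 CPM in GF-HFD mouse 19, against 171.8 to 1621 CPM in the other 6. Mouse 11 (labelled DS11) was therefore left out as a check of each result. The retina itself was plain in every library. The 12 rod markers summed to 37010 to 61770 CPM in GF-ND and 62850 to 81120 CPM in GF-HFD retinas, so that every GF-HFD library lay above every GF-ND library. In whole-tissue RNA, fewer cells of a type and less RNA per cell cannot be told apart.

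The levels of all 9 RNAs had a lower mean in GF-HFD than in GF-ND retinas, with the widest gaps in Meg3, Snhg11, Cdr1os and Miat, whose log2 fold changes ran from -0.91 to -1.05. The genes had been proposed with this contrast known, so the differences between the diets are given as a description, and the counts of calls below are no independent evidence for them. Every GF-HFD retina lay below every GF-ND retina for Meg3, Snhg11 and Cdr1os, that is for 3 of 9 members, which also holds for 2.54% of all genes tested (682 of 26900). The opposite order, with every GF-HFD retina above, held for 0 members and 2.29% of all genes. For the other 6 members the diets overlapped.

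Meg3, a growth-restraining RNA, stood at 723, 1469, 591 and 754 CPM in GF-ND mice 9, 10, 11 and 12, and at 391, 419, 562 and 335 CPM in GF-HFD mice 13, 15, 16 and 19. Mouse 10 stood far above every other retina, and the highest GF-HFD retina (mouse 16) came close to the lowest GF-ND retina (mouse 11) without reaching it. The means were 884 ± 396 CPM in GF-ND and 427 ± 96.7 CPM in GF-HFD (SD, n = 4 each), and the log2 fold change, GF-HFD over GF-ND, was -1.05 (SE 0.27). It was -1.19 (SE 0.23) without mouse 11 and -0.70 without mouse 10.

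Rian, the snoRNA and microRNA host that follows Meg3, varied least of the 9, with a highest retina 1.75 times the lowest. Its level was 152, 187, 132 and 153 CPM in the GF-ND mice (9, 10, 11, 12) and 107, 115, 137 and 109 CPM in the GF-HFD mice (13, 15, 16, 19). The diets overlapped through mice 11 and 16 only. Its log2 fold change was -0.42 (SE 0.12), and -0.32 without mouse 10. Without mouse 11 it was -0.48 (SE 0.097), and every GF-HFD retina then lay below every GF-ND retina, as for 10.9% of all genes.

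Mirg, whose span holds 26 of the 39 mature microRNAs counted above, was weakly expressed. It stood at 4.56, 8.86, 3.45 and 4.43 CPM in the GF-ND mice and at 1.79, 3.42, 5.79 and 1.82 CPM in the GF-HFD mice, from 75 to 360 counts a library. Mice 13 and 19 were low, while mouse 16 lay above 3 of the 4 GF-ND mice. The log2 fold change was -0.73 (SE 0.42) and it was -0.38 without mouse 10 and -1.18 without mouse 16.

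Snhg11 followed the same order of mice as Meg3. Its level was 499, 1047, 475 and 575 CPM in GF-ND and 287, 301, 461 and 251 CPM in GF-HFD retinas. As for Meg3, mouse 10 stood far above the rest and mouse 16 just below mouse 11. The means were 649 ± 269 CPM in GF-ND and 325 ± 93.0 CPM in GF-HFD (SD, n = 4 each), with a log2 fold change of -0.998 (SE 0.27), of -1.11 (SE 0.24) without mouse 11 and of -0.68 without mouse 10.

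Miat stood at 17.4, 53.0, 25.3 and 23.5 CPM in the GF-ND mice and at 12.7, 15.8, 21.1 and 13.7 CPM in the GF-HFD mice. Mouse 10 again stood far above every other retina, and mouse 9 lay below mouse 16, so the diets overlapped. In the fit, its log2 fold change was -0.91 (SE 0.31) and -0.98 (SE 0.31) without mouse 11, but -0.49 without mouse 10.

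Cdr1os had the smallest error among the larger differences. It stood at 69.5, 109.5, 54.7 and 81.1 CPM in GF-ND and at 47.6, 44.9, 37.7 and 33.4 CPM in GF-HFD retinas, and unlike Meg3 and Snhg11 it was no higher in mouse 16 than in mice 13 and 15. The means were 78.7 ± 23.2 CPM and 40.9 ± 6.55 CPM (SD, n = 4 each), and the log2 fold change was -0.94 (SE 0.20), -1.08 (SE 0.15) without mouse 11 and -0.75 without mouse 10.

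Malat1 was the most abundant of the 9. It stood at 2055, 941, 1613 and 2515 CPM in the GF-ND mice and at 1558, 1178, 589 and 1445 CPM in the GF-HFD mice. Mice 10 and 16, which had the highest level of Meg3 in their diet group, had the lowest level of Malat1 in it. The means of 1781 ± 670 CPM and 1192 ± 433 CPM (SD, n = 4 each) gave a log2 fold change of -0.58 (SE 0.34), which was -0.62 (SE 0.34) without mouse 11, -0.37 without mouse 12 and -0.35 without mouse 16.

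Neat1 was at 16.4, 31.5, 70.6 and 22.5 CPM in the GF-ND mice and at 12.5, 13.5, 37.7 and 44.8 CPM in the GF-HFD mice. Mouse 11 was the highest, followed by mice 19 and 16, and the diets overlapped over most of their range. The log2 fold change was -0.38 (SE 0.52), and without mouse 11 the direction turned, to 0.21 (SE 0.41). It was -0.62 without mouse 9, -0.14 without mouse 13, -0.16 without mouse 15, -0.58 without mouse 16 and -0.73 without mouse 19, and -0.12 with the lens markers as a covariate.

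Rmst stood at 2.36, 5.57, 6.50 and 3.73 CPM in GF-ND and at 2.87, 2.75, 3.55 and 3.45 CPM in GF-HFD retinas. The GF-ND mice spread from the lowest to the highest level of all 8, and the GF-HFD mice lay within that range. The log2 fold change of -0.52 (SE 0.29) was -0.29 (SE 0.26) without mouse 11.

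**Figure D1:**
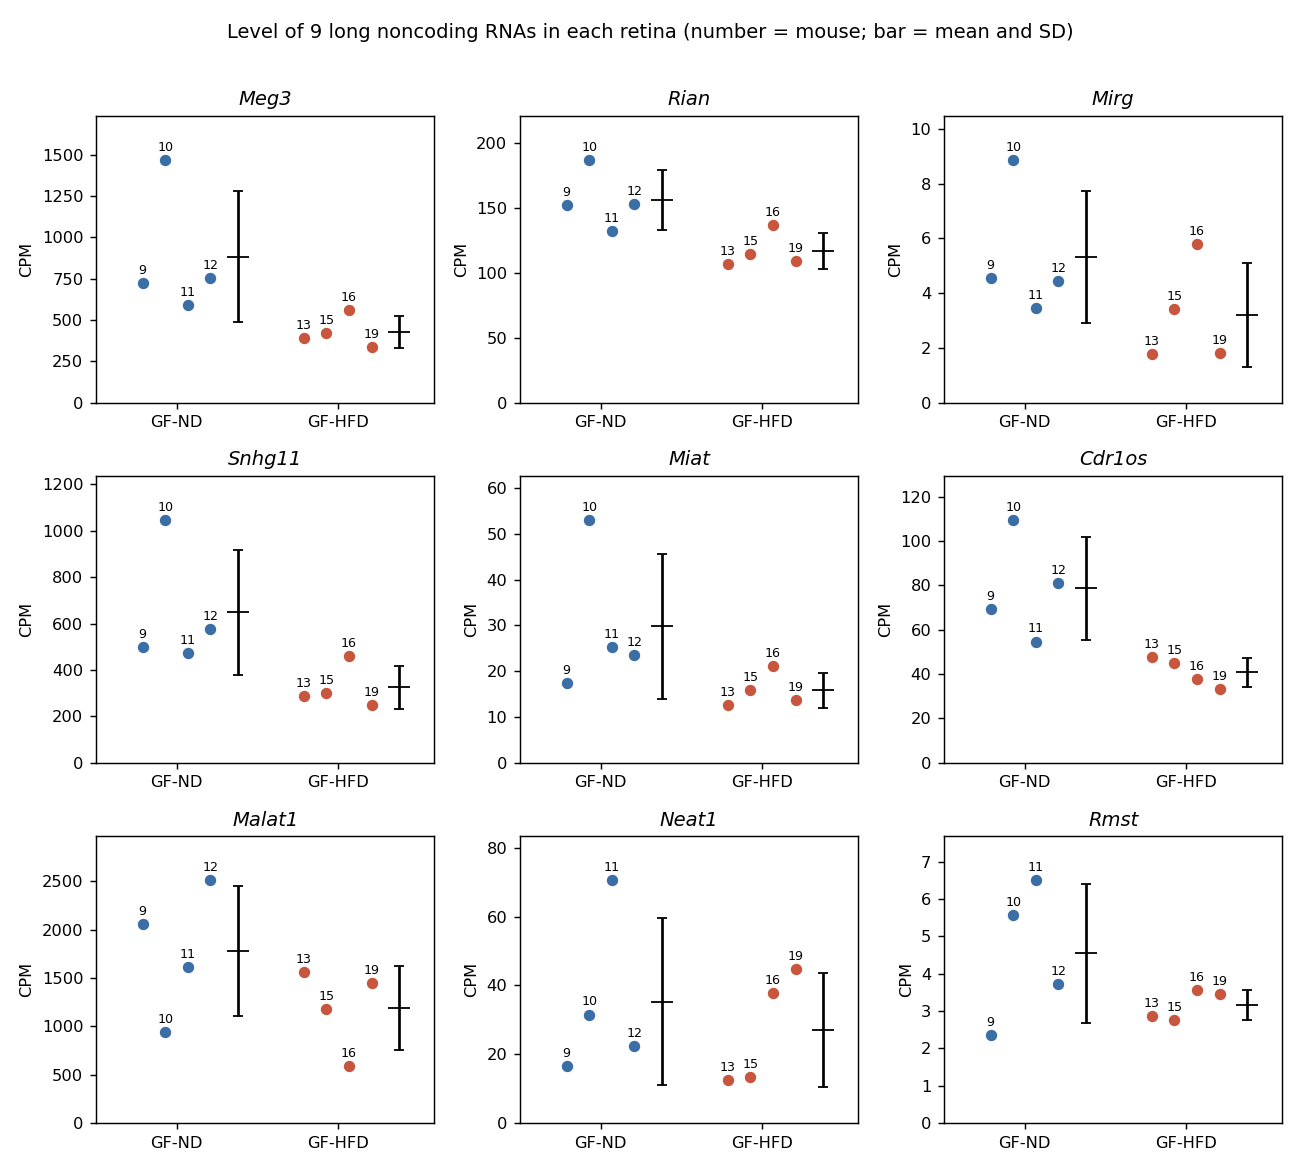
Level of the 9 RNAs in CPM (vertical axis, from 0) in each retina by diet; points are single mice with their numbers, and the black bars are the mean and SD of 4 mice. For Meg3, Snhg11 and Cdr1os all GF-HFD points lie below all GF-ND points, mouse 10 is the highest for the first 6 RNAs, and mouse 11 is the highest for Neat1 (70.6 CPM).

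Compared per exon length, the levels formed 3 tiers. That length joins all annotated exons of a gene, and the order depends on it. Which of the exons the transcripts in these retinas held was not measured. Malat1 had a mean of 212.9 RPKM, Snhg11 of 57.1 and Meg3 of 36.2, then Rian of 7.48, and then Cdr1os (2.49), Miat (2.46), Neat1 (1.502), Mirg (0.585) and Rmst (0.518). The lowest Meg3 retina (18.5 RPKM) was above the highest Rian retina (10.3 RPKM), and the lowest Rian retina (5.84 RPKM) above the highest Cdr1os retina (4.56 RPKM). The other 6 neighbours in this order overlapped between retinas.

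By the fit over all genes, 5 of the 9 members (Meg3, Rian, Miat, Snhg11 and Cdr1os) were lower in GF-HFD at an unadjusted p under 0.05, where 4.53% of all genes tested were. At the study's thresholds (p under 0.01 and a log2 fold change below -1) Meg3 was the only member, beside 0.372% of all genes. After adjustment over all genes (Benjamini-Hochberg), edgeR called 0 of the 26900 genes at 0.05 (0.0%), and limma-voom also called 0, whereas 1985 genes had an unadjusted edgeR p under 0.05. DESeq2 called 46 genes (0.171%), Meg3 and Cdr1os among them. Without mouse 11, edgeR called 421 genes, and 4 of the members (Meg3, Rian, Snhg11 and Cdr1os) were among the 360 that were lower, 1.37% of the genes tested then. Without that mouse, every GF-HFD retina lay below every GF-ND retina for 4 members, beside 10.9% of all genes. The log2 fold change was below 0 for 9 of 9 members and for 53.7% of all genes.

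**Figure D2:**
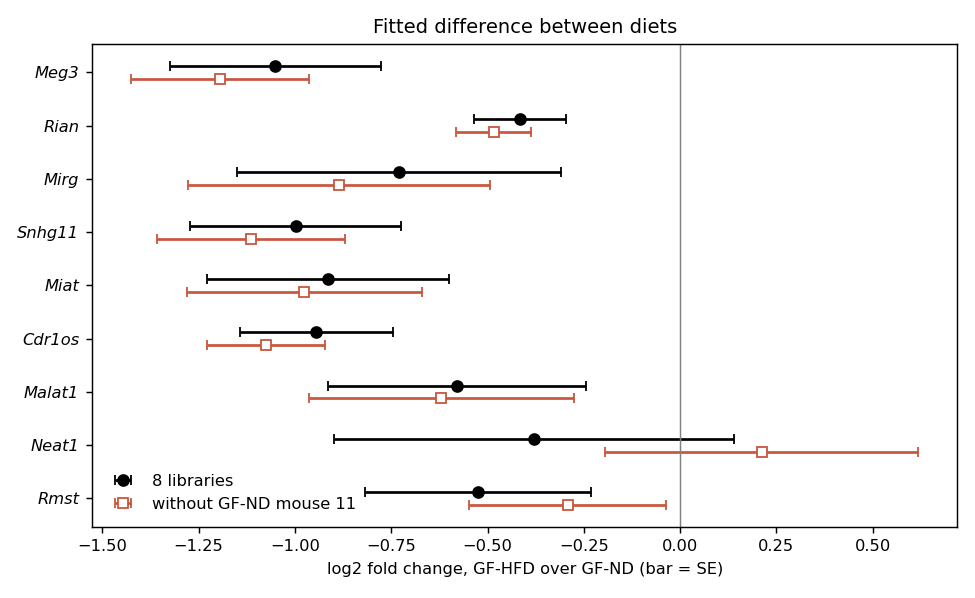
Log2 fold change of each RNA, GF-HFD over GF-ND (horizontal axis), with its SE, from all 8 libraries (filled circles) and without GF-ND mouse 11 (open squares). All circles lie left of 0; Neat1 alone crosses to the right when mouse 11 is left out (0.21, SE 0.41).

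Long noncoding genes as a class also lay lower in GF-HFD retinas. Of 4145 other long noncoding genes of the annotation that were tested, 2933 (70.8%) had a log2 fold change below 0, with a median of -0.27, while 44.1% of 16668 protein-coding genes did, with a median of 0.030. The median of the 9 members was -0.73, and -0.89 without mouse 11, when that of the other long noncoding genes was -0.33. Of these other genes, 298 (7.19%) were lower and 25 higher at an unadjusted p under 0.05, and 4.25% had every GF-HFD retina below every GF-ND retina. In a list of 26 other long noncoding RNAs of nuclei and neurons, 16 of the 23 tested were lower, with a median log2 fold change of -0.056. Fitted log2 fold changes were -0.74 (SE 0.21) for Ftx, a regulator of Xist in the X-inactivation centre, and 0.43 (SE 0.12) for the retinal noncoding RNA Rncr4. Both had an unadjusted edgeR p under 0.01 and neither passed after adjustment. The most abundant of that list, the microRNA-124 hosts Mir124a-1hg (-0.43, SE 0.25) and Mir124-2hg (-0.14, SE 0.18) and Oip5os1 (0.088, SE 0.10), also called Cyrano, had no unadjusted edgeR p under 0.05.

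How the 9 RNAs varied together from mouse to mouse within a diet was not used to choose them. Over the 8 retinas, Meg3, Rian, Mirg, Snhg11, Miat and Cdr1os were all highest in mouse 10, and most pairs of them were correlated. Of the 36 pairs of members, 13 had a correlation of log2 CPM with an adjusted p under 0.05 (two-sided exact permutation test, adjusted over the 36 pairs), and all 13 were positive and lay among the 15 pairs of those 6 RNAs. The 2 pairs of them that did not pass were Mirg with Cdr1os (r 0.668, exact permutation p = 0.0711, adjusted p = 0.15) and Miat with Cdr1os (r 0.763, exact permutation p = 0.0229, adjusted p = 0.0549). These 6 were grouped after their values had been seen. A shared difference between the diets adds to such a correlation, and the diet was the contrast known when the genes were chosen. The p-values from permuting all 8 mice, here and below, are therefore not independent of that choice. For this reason r is given for the member pairs also with the mean of each diet taken out. With the diet means taken out and the mice permuted within each diet, 0 of the 36 pairs passed, and the smallest adjusted p was 0.0521 (exact permutation test). Permuting within each diet allows far fewer arrangements than permuting all 8 mice. A single pair could not pass alone after adjustment, whatever its r. This test therefore cannot show that the correlations were absent within the diets.

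Meg3 and Snhg11, on different chromosomes, were the closest pair. Their Pearson r was 0.992 (exact permutation p = 2.48e-05, the smallest that 40320 arrangements allow, adjusted p = 0.000893), and all 8 mice stood in the same order for both (Spearman rho 1.0, exact permutation p = 4.96e-05). The r was 0.973 without mice 10 and 19, the 2 farthest from the median, and 0.980 with the diet means taken out. On the log2 scale Snhg11 moved 0.98 per unit of Meg3, so that both varied over nearly the same range.

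Within the imprinted domain, Meg3 and Rian had an r of 0.978 (exact permutation p = 0.000273, adjusted p = 0.00327) and a rho of 0.952 (exact permutation p = 0.00114). It was 0.986 without mice 10 and 19 and 0.945 without the diet means. Rian moved only 0.40 per unit of Meg3 on the log2 scale, so the neighbours were high in the same mice over ranges of different width. Rian and Mirg had an r of 0.912 (exact permutation p = 0.000868, adjusted p = 0.00781; rho 0.905, exact permutation p = 0.00456), which was 0.777 without mice 10 and 13 and 0.927 without the diet means. Meg3 and Mirg had an r of 0.888 (exact permutation p = 0.00258, adjusted p = 0.0116; rho 0.810, exact permutation p = 0.0218), which was 0.707 without mice 10 and 19 and 0.874 without the diet means.

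Some RNAs from other chromosomes also followed Meg3, namely Snhg11 (above), Miat and Cdr1os. Malat1 (r -0.068), Neat1 (r 0.12) and Rmst (r 0.47), also from other chromosomes, had no adjusted p under 0.05 with Meg3. For Miat, r with Meg3 was 0.922 (exact permutation p = 0.00327, adjusted p = 0.0131; rho 0.857, exact permutation p = 0.0107), 0.718 without mice 10 and 19 and 0.865 without the diet means. For Cdr1os it was 0.908 (exact permutation p = 0.00171, adjusted p = 0.0103; rho 0.905, exact permutation p = 0.00456), 0.729 without mice 10 and 19 and 0.748 without the diet means. Over the 15 pairs of the 6 RNAs, r ran from 0.668 (Mirg and Cdr1os) to 0.992 with a median of 0.902, and from 0.450 to 0.980 without the diet means.

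Mouse 10 carried much of this. Without it, 3 pairs passed (Meg3 with Rian, Meg3 with Snhg11 and Rian with Snhg11), and without mouse 19, 4 pairs did. With Spearman's rho in place of r, 8 pairs passed.

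**Figure D3:**
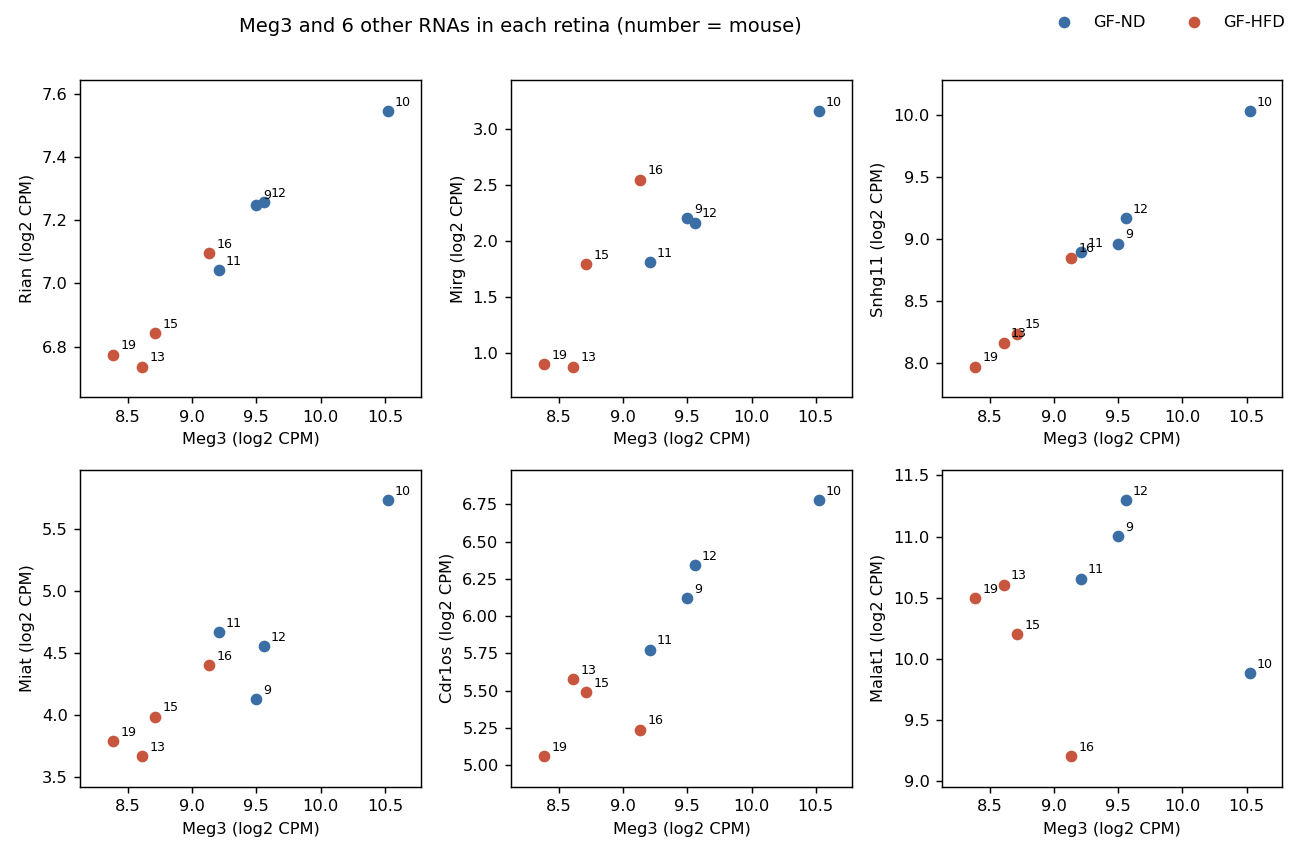
Log2 CPM of Meg3 (horizontal axes) against log2 CPM of Rian, Mirg, Snhg11, Miat, Cdr1os and Malat1 (vertical axes), 1 point per mouse with its number, GF-ND in blue and GF-HFD in red. In the first 5 panels the points run upwards from mouse 19 or 13 to mouse 10 (r 0.888 to 0.992), and in the Malat1 panel mice 10 and 16 lie below the other mice of their diet.

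Malat1 showed no such relation. Its r with the other 8 RNAs ran from -0.37 (Mirg) to 0.29 (Cdr1os), with no adjusted p under 0.05. With the diet means taken out, r of Malat1 was -0.79 with Meg3, -0.78 with Rian, -0.86 with Mirg, -0.86 with Miat and -0.85 with Snhg11, values that are given as a description and whose pairs had no adjusted p under 0.05. Neat1 came closest to Rmst, with an r of 0.785 (exact permutation p = 0.0208, adjusted p = 0.0536) and a rho of 0.690 (exact permutation p = 0.0694), and its r was 0.591 without mice 11 and 13 and 0.786 without the diet means. The r of Neat1 with its chromosomal neighbour Malat1 was -0.23 (exact permutation p = 0.580, adjusted p = 0.773; rho -0.14, exact permutation p = 0.752), and -0.40 without the diet means.

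**Figure D4:**
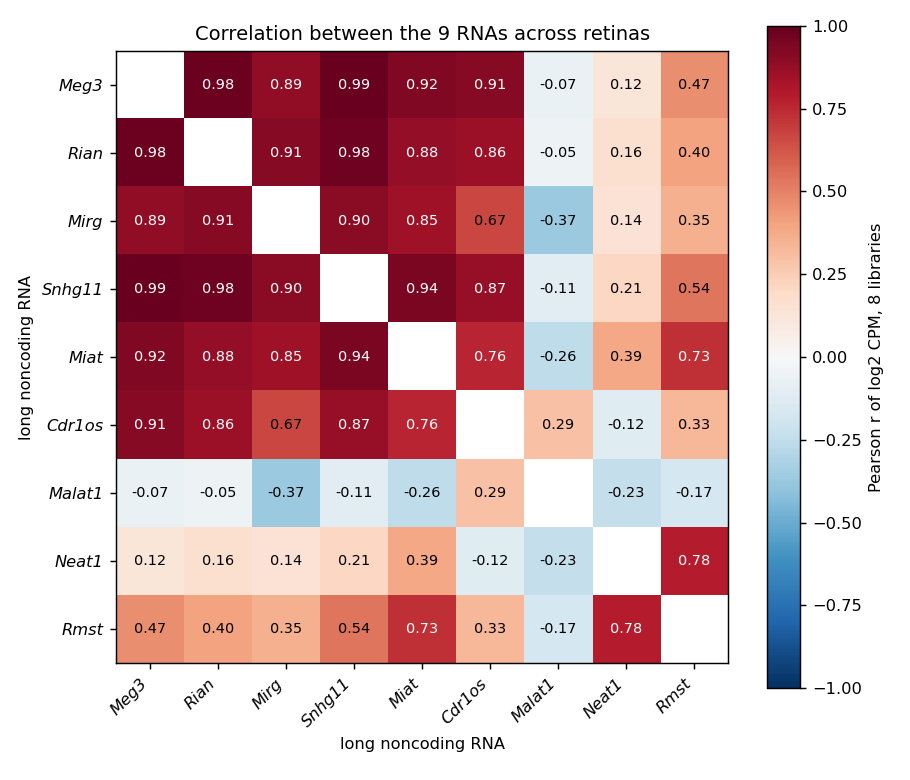
Pearson r of log2 CPM over the 8 retinas for each pair of the 9 RNAs, from -1 (blue) to 1 (red), with the value in each cell. The 6 RNAs at the upper left form a block with r from 0.668 to 0.992, and Malat1 has r from -0.37 to 0.29 with the others.

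The genes outside the 9 that varied most like each member were sought among 15269 genes with a mean of at least 1 CPM, by Pearson's r of log2 CPM over the 8 retinas. For Meg3, 196 of them (1.28%) had an r above 0.9, for Rian 171, for Cdr1os 166 and for Snhg11 164, but for Malat1 17, for Mirg 21 and for Rmst 28. Closest to Meg3 were Kcnt1, a sodium-activated potassium channel (r 0.990), and the noncoding Gm3294 and Gm36937. Closest to Rian were Aldh4a1, an enzyme of proline breakdown (r 0.995), Zfp57, a zinc finger protein that maintains imprints (r 0.990), and Stxbp2. Snhg11 was followed by Cyp4f17, Gm31024 and Col11a2 (r 0.986 to 0.989), Miat by Adam11 (r 0.988), Rasa4 and Hjurp, and Mirg by Rab26os, the collagen gene Col6a1 (r 0.963) and 9030624G23Rik. For Cdr1os the closest were Gm44623, Gm38020 and Gm45212 (r 0.978 to 0.985), none of them protein-coding in the annotation.
Neat1 was closest to Slc12a4, a potassium-chloride cotransporter (r 0.978), Cers2, a ceramide synthase, and Ctnnal1. Rmst was closest to Mapk7 (r 0.964), Trip6 and Abca2, and Malat1 to Gm37534, Gm43169 and 4933413L06Rik (r 0.944 to 0.947). These are the highest of many values over 8 mice that include both diets, and are given as a description.

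In the Dlk1-Dio3 domain and beside it, 6 of 8 genes had a higher and 2 a lower fitted level in GF-HFD retinas, with a median log2 fold change of 0.24. Of all 26900 genes tested, 12454 were higher and 53.7% lower. Rtl1, a retrotransposon-derived gene of the domain, was at 50, 82, 40 and 67 counts in the GF-ND mice and at 36, 33, 40 and 13 counts in the GF-HFD mice, with a log2 fold change of -1.01 (SE 0.38). Dlk1, which gives the domain its name and is among the 6, had 0 to 6 counts a library, which is too few for a comparison. Dio3, the thyroid hormone deiodinase at the other end, ran from 10 to 216 counts with overlapping diets and a log2 fold change of 1.30 (SE 0.68). The flanking genes Ppp2r5c (0.26, SE 0.11), Wars (0.22, SE 0.095) and Begain (-0.21, SE 0.16) had the highest levels. At an unadjusted p under 0.05, 2 of the 8 (Ppp2r5c and Wars) were higher, as were 2.85% of all genes, and 1 (Rtl1) lower, as were 4.53%. Rtl1, Dlk1 and Dio3 were named after their values had been seen.

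Among 23 other imprinted genes tested of 24, 10 were higher and 13 lower, with a median log2 fold change of -0.026, and 1 (Mest) was higher and 2 (Airn and Kcnq1ot1) lower at an unadjusted p under 0.05, where 2.85% and 4.53% of all genes were. Without mouse 11 the median of these imprinted genes turned to 0.081, while those of the other partner and neighbour lists kept their direction. The most abundant were Peg3 (-0.33, SE 0.16), Peg13 (0.17, SE 0.079) and Impact (0.080, SE 0.090). Of the protein partners, the 15 paraspeckle proteins had a median log2 fold change of -0.10, with 6 higher and 9 lower and 0 of them with an unadjusted edgeR p under 0.05. Sfpq (-0.21, SE 0.12) and Hnrnpk (0.10, SE 0.096) are among the most abundant of that list. Of the 15 nuclear speckle proteins, 14 had a log2 fold change below 0, as did 53.7% of all genes, and 1 above, with a median of -0.22, and 3 (Srsf2, Srsf6 and Pnn) were lower at an unadjusted p under 0.05, beside 4.53% of all genes. The genes given by this threshold were named after their values had been seen. The speckle scaffolds Son (-0.18, SE 0.13) and Srrm2 (-0.34, SE 0.18) and the splicing factor Srsf5 (-0.37, SE 0.19) are the most abundant of that list.

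The circular RNA antisense to Cdr1 is known to bind the microRNA miR-7 in neurons, and Cdr1os spans its gene. Cdr1 (1554 bp) lies wholly within exons of Cdr1os on the opposite strand and had 0 counts in all 8 libraries. Whether reads from this stretch were assigned to neither gene was not tested, and the row of Cdr1os does not measure the circular RNA. Of 8 genes listed around miR-7, 5 were tested, 2 higher and 3 lower, with a median log2 fold change of -0.024. Oip5os1, which triggers the decay of miR-7, had means of 762 ± 76.4 and 810.1 ± 53.7 CPM in GF-ND and GF-HFD (SD, n = 4 each). Pgap1 (-0.024, SE 0.069) and Nav3 (0.059, SE 0.12) were the other most abundant genes of the list.

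The small RNAs encoded within the members were sparsely counted. Rian spans 17 such genes, 4 of them with any count and 132 counts in all, and Mirg spans 15, of which 7 had a count and 54 counts were found in all. The 2 microRNA genes within Meg3 had 0 counts in every library. Both lie wholly within exons of Meg3 on the same strand. Whether reads over a small RNA gene and an exon of its host were assigned to neither was not tested. A count of 0 in such a place therefore does not show that the small RNA was absent, and the numbers of genes with a count share this limit. Mir341, an intronic hairpin gene of Rian whose arms are shown above, had 12, 7, 9 and 15 counts in the GF-ND mice and 5, 1, 0 and 2 in the GF-HFD mice, and Mir1188 next to it had 10, 10, 6 and 6 against 13, 3, 4 and 5. The diets did not overlap for Mir341 and did for Mir1188. Mir453, with the seed it shares with miR-496a-5p, had 6, 4, 1 and 7 counts in the GF-ND mice and 0, 1, 2 and 0 in the GF-HFD mice. In Snhg11 the intronic snoRNA gene Gm25129 had 15, 38, 15 and 33 counts in GF-ND and 14, 18, 8 and 5 in GF-HFD retinas, with its highest count in mouse 10 like its host. These low counts were singled out after they had been seen. Gm26953, which overlaps Miat on the other strand, had 6 counts in all beside 7617 for Miat. In Rmst, Gm27544 had 133 counts and Mir135a-2 63 counts beside 1290 for their host. The other overlapping genes had 7 counts or fewer each, apart from those of Rian and Mirg, many of them 0. For Gm26906 (Meg3), Gm26945 (Rian) and Gm26700 (Rmst) no row with this symbol was found among the genes counted.

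Marker sums of several cell types, within and around the retina, were highest in the mice with the most Neat1. The 10 pigment epithelium markers, all detected in every library, summed to 1391 CPM in mouse 11, 1075 in mouse 16 and 996.5 in mouse 19, and to 360.9 to 591.5 CPM in the other 5. The 10 fibroblast markers summed to 253.7, 256.2 and 324.9 CPM in the same 3 mice and to 40.95 to 156.1 CPM in the others, with 1 of them, Lum, at 0 in at least 1 library. Of the cells of the retina itself, the 9 Mueller glia markers summed to 7284, 5962 and 6654 CPM in mice 11, 16 and 19 and to 3914 to 5601 CPM in the others, and the 10 microglia markers to 66.5, 60.6 and 74.8 CPM against 35.6 to 58.0 CPM. Rlbp1 is in both the pigment epithelium and the Mueller glia list, so these sums share a gene. These 3 mice had the 3 highest levels of Neat1, at 70.6, 37.7 and 44.8 CPM. The part of these cells and tissues in the level of Neat1 was not tested.

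**Figure D5:**
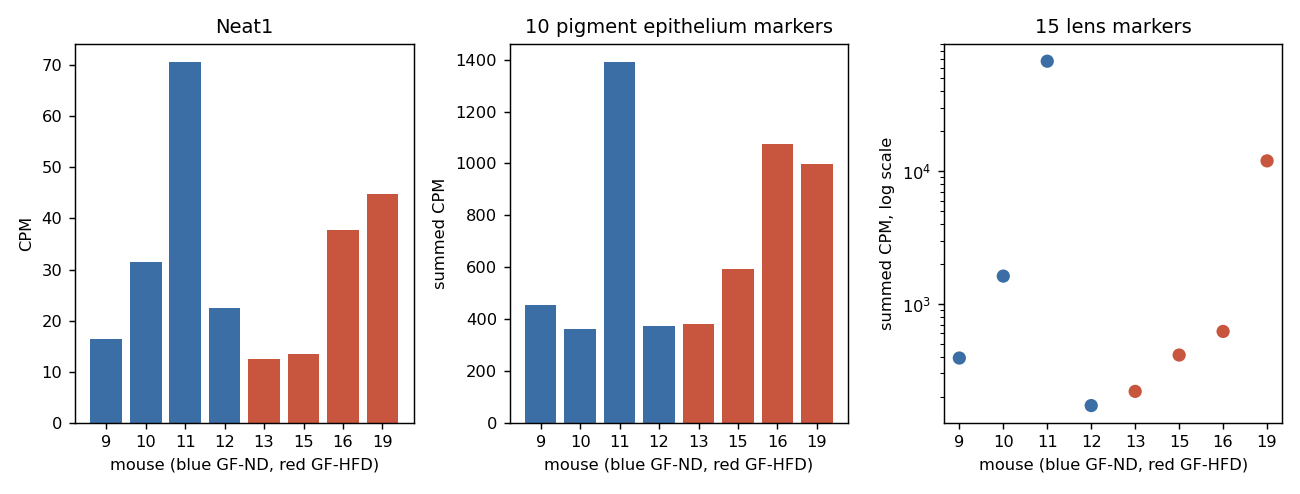
Level of Neat1 in CPM (left), summed CPM of 10 pigment epithelium markers (middle) and summed CPM of 15 lens markers on a log scale (right) in each of the 8 retinas, GF-ND in blue and GF-HFD in red. Mice 11, 16 and 19 are the 3 highest for Neat1 and for the pigment epithelium markers, and mouse 11 has the highest lens sum (67260 CPM).

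The 9 RNAs differed between their highest and lowest retina by 1.75-fold (Rian) to 5.64-fold (Neat1). Meg3 differed 4.39-fold, and the summed markers, which add up 9 to 12 genes, differed 2.19-fold for rods, 1.09-fold for bipolar cells, 1.38-fold for amacrine cells and 1.42-fold for ganglion cells. In mouse 10, the highest for 6 of the RNAs, these sums were 1637, 1419 and 903.4 CPM, within the range of the other mice. The sums differed 1.98-fold for cones, 1.31-fold for horizontal cells, 1.86-fold for Mueller glia, 2.10-fold for microglia and 4.17-fold for skeletal muscle, with 5 of the 10 muscle markers at 0 in at least 1 library. The rod sum of mouse 10 was 58580 CPM, and the rod sum was higher in every GF-HFD retina than in every GF-ND retina. Taken singly, 3 of the 12 rod markers had this order, as did 2.29% of all genes. The part of the rod difference in the lower levels of the 9 RNAs was not tested.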

How the data were processed

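Retinal RNA of 8 mice was sequenced as 100-bp pairs from TruSeq RNA libraries. Alignment by the authors used STAR 2.4.2 on GRCm38 (mm10). Reads per gene of Gencode vM23 were then counted by featureCounts (Subread 1.4.6-p1), and these raw counts were deposited, 1 table per mouse, without scaling. The strand setting of the counting, its handling of reads over 2 genes and any poly(A) selection are not given in the sources used here. Counts of overlapping genes are therefore uncertain. Counts were compared between diets with edgeR 4.0.16 in R 4.3.3 (TMM, quasi-likelihood test, Benjamini-Hochberg adjustment) for genes with a total of 10 counts or more. Replicates were separate mice. SEs were derived from the log2 fold change and its F statistic. Log2 CPM used a prior count of 2. RPKM, positions and gene types are from GENCODE vM21, and sequences from RefSeq on GRCm38.p6. Correlations were tested by exact permutation over 36 pairs. The members and gene lists were chosen with earlier results of these data known. Named are the 9 members, for each the 3 genes of the highest r, the 3 most abundant genes of each partner list and those with an unadjusted p under 0.01, and genes that overlap a member, those with 0 counts only by their number. Other genes were named after their values had been seen, as the text says beside them. Other lists are marker genes of 12 cell types or tissues. Alternatives were RLE factors, library totals, no filter, filterByExpr, 10 CPM in 4 libraries, DESeq2 1.42.0, limma-voom (limma 3.58.1), a lens covariate and each mouse left out. Rows of 2 symbols that occur more than once were not named. Of the genes that the naming rule selects, 1 is not reported here.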

Additional observations from a re-analysis of the deposited data

How the results depend on the processing

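The median log2 fold change of the 9 members was -0.73, and it ran from -0.91 to -0.49 when each mouse was left out in turn and from -0.80 to -0.74 under other scalings, filters and tests. Of the values of single members under the alternatives, 147 kept their direction and moved by less than the spread between mice, 3 turned direction and 1 moved further. That spread is the pooled SD within the diets. Leaving out 1 of the 4 mice of a diet can hardly move a value by so much, so the tally says little about stability. Meg3 at -0.70 and Miat at -0.49 without mouse 10, against -1.05 and -0.91 with it, are among the 147. Neat1 turned to 0.21 without mouse 11 and to 0.47 without mice 10 and 11, and Rmst to 0.044 without mice 10 and 11, where Miat moved to -0.38. Leaving out both was chosen after seeing the data. The count of members lower in GF-HFD was 8 to 9 and that of members at an unadjusted p under 0.05 was 5 to 6 when a mouse was left out. The filter of 10 CPM in 4 libraries tested 7 members (not Mirg and Rmst) and gave no median.

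The number of genes with an adjusted p under 0.05 was 0 with edgeR, 46 with DESeq2 and 1 with the lens markers as a covariate, and 0 to 421 when a mouse was left out, with 421 without mouse 11. At an unadjusted p under 0.05 it was 1985 genes, 1224 to 6068 when a mouse was left out, 895 with the filter of 10 CPM, 3602 with the lens covariate and 4471 without mice 10 and 11. Of the 36 correlations, 13 passed, 14 with library totals, 8 with Spearman's rho, 0 with the diet means taken out, and 3 (without mouse 10) to 15 (without mouse 16) when a mouse was left out, with 4 without mouse 19. With the diet means taken out, a single pair could not pass alone, as said above. The cause of the differences between settings was not tested. No paired analysis was possible because the diets share no replicate numbers. Mirg had 75 to 360 and Rmst 98 to 273 counts in a library, so their values carry the largest counting error of the 9.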
